A study of Mus musculus with 15 samples.

Results

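At 853 coding promoter regions, a peak of histone H3 trimethylated on lysine 4 (H3K4me3) was called in CLPP-KO brown adipocytes. No overlapping peak was called there in WT or WT + 2HG cells. To find these regions, the overlapping peaks of the 3 deposited H3K4me3 lists were joined into 15110 regions on chromosomes 1 to 19. Those kept held a CLPP-KO peak, held no peak of the other lists, and lay within 2000 bp of the start of a protein-coding transcript. Regions within that distance of a coding start, in any combination of lists, numbered 12913. The members were chosen on the peak calls themselves, so their absence from the WT and WT + 2HG lists, their number and the size of their peaks describe the choice and are not tested here. CLPP-KO-only regions of any kind, promoter or not, were 1475, or 9.76% of all regions, and the 853 members were 6.61% of the coding promoter regions.

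H3K4me3 ChIP–seq was carried out in mBA cells, brown preadipocytes from brown adipose tissue that were immortalized with SV40 large T antigen and differentiated into mature brown adipocytes, although the labels call them primary. The WT group was untreated wild-type cells, the WT + 2HG group was wild-type cells given octyl d-2HG, a cell-permeable form of 2-hydroxyglutarate, at 500 µM in DMSO for 72 h, and the CLPP-KO group was untreated cells from mice without CLPP, a protease of the mitochondrial matrix. CLPP-KO cells also received uridine, so the loss of CLPP and the supplement cannot be told apart. The cells of each genotype were a line made from pooled animals of both sexes, and replicates were independent cultures, so differences between lines cannot be told apart from the genotype. There were 4 ChIP samples and 1 input per condition, but the authors called the peaks of each condition on its 4 replicates together. Each condition therefore has 1 value per region, no spread between replicates can be given, and the intervals printed below are 95% Wilson intervals that cover counting error only.

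H3K4me3 is laid down around the starts of genes, by methyltransferases that are drawn to unmethylated CpG-dense DNA, and it is removed by demethylases that need α-ketoglutarate. It is found at active promoters and, together with H3K27me3, at silent promoters of developmental genes, which are called bivalent. 2-Hydroxyglutarate resembles α-ketoglutarate and can inhibit such demethylases. A peak of this mark is a statement about chromatin and was not set beside a measurement of transcription here.

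The CLPP-KO list was also the longest and the strongest. It held 14461 peaks on chromosomes 1 to 19, against 13668 in WT + 2HG and 11988 in WT. The median area under the enrichment curve, the size measure of the peak caller, over the whole lists, sex chromosomes included, was 5744 in CLPP-KO, 5027 in WT + 2HG and 2970.5 in WT, so areas are set beside each other mostly as percentiles within their own whole list. Coding promoter regions confined to 1 list were 853 for CLPP-KO, 369 for WT + 2HG and 83 for WT. When each list was cut to the 12342 strongest peaks by area, as many as the WT list holds, these counts became 371, 270 and 297. Only 203 of the 853 members were among the 371, and the part of list length and depth in the others was not tested.

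The DNA under the strongest members was dense in CpG. Shown are 200 bp around the summit of the 5 largest members whose gene had no WT or WT + 2HG promoter peak, leaving out windows that reach into a UTR. The sequences are the + strand of GRCm39, and the capitals mark every CpG.
Pax7, chr4:139559957-139560156: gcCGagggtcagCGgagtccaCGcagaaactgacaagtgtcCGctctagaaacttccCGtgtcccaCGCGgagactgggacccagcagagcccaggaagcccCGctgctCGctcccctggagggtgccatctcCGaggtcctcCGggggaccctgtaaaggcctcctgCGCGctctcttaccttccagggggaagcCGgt
Hoxb5, chr11:96194628-96194827: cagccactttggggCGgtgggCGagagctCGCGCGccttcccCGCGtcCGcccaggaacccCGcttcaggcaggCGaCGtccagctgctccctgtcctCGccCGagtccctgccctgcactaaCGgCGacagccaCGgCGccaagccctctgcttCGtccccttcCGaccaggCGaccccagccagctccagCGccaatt
Camk2b, chr11:6015273-6015472: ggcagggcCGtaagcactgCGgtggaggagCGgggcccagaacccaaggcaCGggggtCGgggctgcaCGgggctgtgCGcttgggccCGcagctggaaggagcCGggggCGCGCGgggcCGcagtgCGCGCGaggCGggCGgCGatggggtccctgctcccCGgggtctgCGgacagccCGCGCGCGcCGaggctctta
H2-Q1, chr17:35539668-35539867: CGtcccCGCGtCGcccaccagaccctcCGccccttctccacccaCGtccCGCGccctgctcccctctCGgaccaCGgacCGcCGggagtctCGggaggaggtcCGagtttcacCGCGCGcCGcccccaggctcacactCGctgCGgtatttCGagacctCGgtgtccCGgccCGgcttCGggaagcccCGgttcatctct
Pax7 second region, chr4:139558999-139559198: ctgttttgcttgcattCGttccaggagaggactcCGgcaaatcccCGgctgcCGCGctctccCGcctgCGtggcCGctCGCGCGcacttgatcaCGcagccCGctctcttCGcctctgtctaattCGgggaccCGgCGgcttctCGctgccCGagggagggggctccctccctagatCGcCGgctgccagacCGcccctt
The first, in an intron of Pax7, held 14 CpG and the second, in the coding exon of Hoxb5, held 21. The Camk2b and H2-Q1 windows held 26 each and the second Pax7 window 22. In all 5 windows the ratio of observed to expected CpG was at least 0.645, and in the H2-Q1 window it was 1.08. H2-Q1 belongs to the major histocompatibility class I family, whose copies are nearly alike, so its peak may hold reads of other copies.

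Member peaks were small within the CLPP-KO list. Their median area was 487, with quartiles of 299 and 956 and a range of 200.04 to 7613, and the median member stood at percentile 10.6 of the list. Only 4 of 853 (0.469%) exceeded the median area of the whole CLPP-KO list. Regions in all 3 lists had a median area of 8407 in CLPP-KO, at percentile 65.0, and regions shared by CLPP-KO and WT + 2HG had 1350.04, at percentile 22.1. Regions called in WT + 2HG only were smaller still within their own list, with a median at percentile 5.84. In bulk chromatin, a weak mark in all cells and a strong one in a few cannot be told apart. Member peaks were also narrow, with a median width of 446 bp against 591 bp for the regions shared with WT + 2HG and 1022 bp for those in all 3 lists.

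Most members lay just downstream of a start. The summit was 297 bp from the nearest coding start at the median, 551 of 853 (64.6%, interval 61.3 to 67.7) were within 500 bp, and 200 (23.4%) were upstream. Of the regions in all 3 lists, 86.2% lay within 500 bp, as did 79.6% of those shared with WT + 2HG and 68.6% of those in WT + 2HG only. By the annotation, 285 member summits (33.4%) fell in an untranslated exon, 255 (29.9%) in a coding exon and 226 (26.5%) in an intron. The other 87 (10.2%) fell outside coding transcripts. So did 11.1% of the summits of regions shared with WT + 2HG, 14.9% of those in WT + 2HG only and 2.82% of those in all 3 lists.

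**Figure D1:**
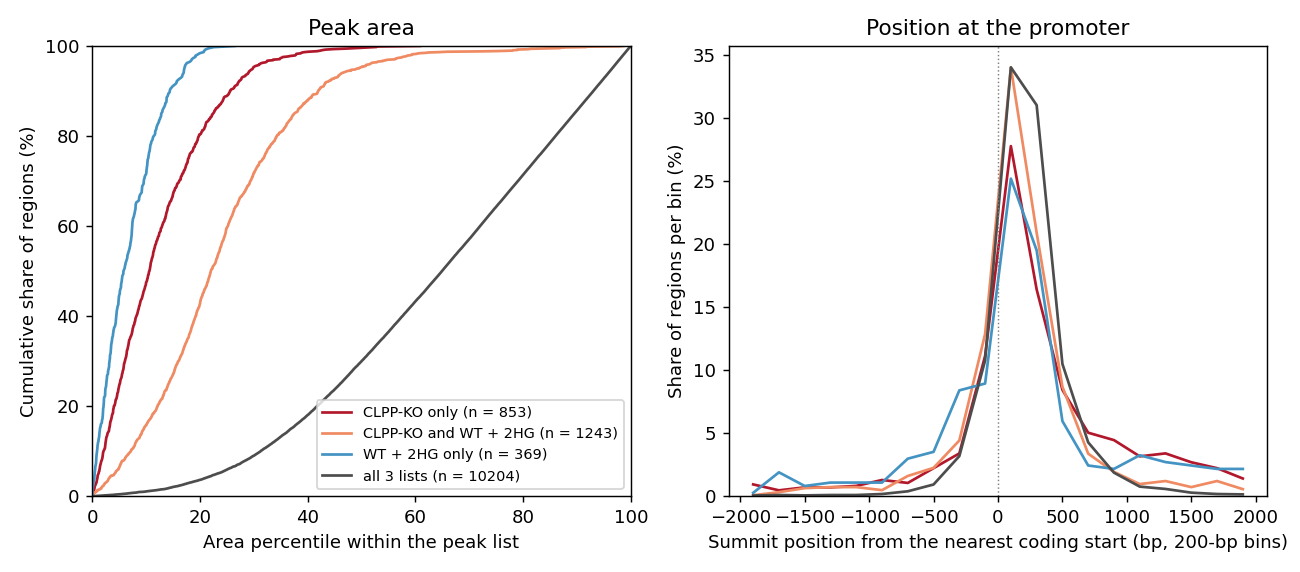
Left, cumulative share of coding promoter regions (%) against the area percentile of the peak within its list (the CLPP-KO list, or the WT + 2HG list for regions in WT + 2HG only); right, share of regions (%) in bins of summit position from the nearest coding start (bp, negative upstream). The line of the 853 members rises early, with its median at percentile 10.6, while that of the regions in all 3 lists has its median at 65.0, and every class peaks just downstream of the start.

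The limits of the rule ran through closely placed regions. The members farthest from a start were regions at Gas2l2 (1975 bp, area 286) and Hoxb6 (1998 bp, area 880), and the nearest regions left out were at Dusp4 (2008 bp, area 212) and Pnma8b (2052 bp, area 538). The members nearest to a peak of another list were at Sf3b2, 4 bp away with an area of 260.2, and at Bcl9, 9 bp away with an area of 267. CLPP-KO peaks left out for the smallest overlap were at Celsr1 (6 bp, area 440.3) and Slfn8 (9 bp, area 218).

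A region called only in CLPP-KO is not always a promoter marked only in CLPP-KO, because a gene can have several starts and a marked start can have more than one peak. A gene is called marked below where at least 1 of its coding promoter windows held a peak of the list named. The members reached the windows of 874 coding genes, which is 4.27% of the 20445 coding genes with a start. At 486 members (57.0%, 53.6 to 60.3), none of the genes reached had a WT or WT + 2HG peak at any coding start. At 107 (12.5%, 10.5 to 14.9) a gene reached had a WT + 2HG promoter peak and none in WT, and at 260 (30.5%, 27.5 to 33.7) it had a WT promoter peak. By gene, 502 of the 20445 coding genes (2.46%) had a promoter peak in CLPP-KO only, and 945 (4.62%) in CLPP-KO and WT + 2HG but not WT.

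These kinds of member differed in size and position. Median area was 543 where the gene was marked in CLPP-KO only, 530.2 where it was marked in WT + 2HG but not WT, and 377 where it was marked in WT. The median distance from summit to start was 221, 400 and 578.5 bp. The kinds were defined by peaks at the same genes, and a member may not overlap a WT or WT + 2HG peak. The distance to the nearest WT peak therefore follows from the definition, and the summit position may follow from it in part. Both are only descriptions. The median distance to the nearest WT peak was 826 bp for members at genes marked in WT. It was 69684.5 bp for members at genes marked in CLPP-KO only. Over all members, 143 (16.8%) had a WT peak within 1000 bp and 218 (25.6%) a WT + 2HG peak within 1000 bp. When peaks within 1000 bp of each other were joined, 614 members remained in CLPP-KO-only regions, and the regions at Gata3, Lbx1, Irx2, Prox1 and Zfp536 and one at Hoxb3 did not.

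Among genes marked in CLPP-KO only, the 15 largest regions are given first. The largest lay on chromosome 4 at 139559586 to 139560897, at Pax7, the transcription factor of muscle satellite cells, with an area of 6247 (percentile 53.0). A second Pax7 region of area 2900.2 followed 1370 bp into the gene. The nearest WT peak was 207772 bp from the second region, and the nearest WT + 2HG peak, 9530 bp from the second region, overlapped a CLPP-KO peak inside the gene. Hoxb5, one of the Hox genes that set position along the body axis, came next with 6217 (percentile 52.8) on chromosome 11 at 96194352 to 96195088, in its coding exon.

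Spon1, which encodes a secreted matrix protein, had a region of area 5853 (percentile 50.7) whose nearest WT peak was 251328 bp away. Fam83b had one of area 5557 (percentile 49.0), with its summit 21 bp upstream of the start. At AI661453 the area was 4479 and at Eng, the TGF-β co-receptor endoglin, 4029.7. Smaller regions of this class were at the kinase gene Camk2b (3823), at Vstm2b (3671), at the formin gene Fmn2 (3638), at Dtx1, a ubiquitin ligase of the Notch pathway (3380.1), at H2-Q1 (3216), at Marchf11 (3199), at Frmd3 (3164), at the α-catenin gene Ctnna2 (3148) and at the dynein subunit gene Dync1i1 (3141). Of these 15 regions, 14 were CpG-rich by the measure given below and Dync1i1 was not. The distance to the nearest WT peak ranged from 3834 bp at Hoxb5 to 3943576 bp at Ctnna2.

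Among genes that also had a WT or WT + 2HG peak, the largest members stood beside a shared peak. At Gata3, a regulator that keeps preadipocytes from differentiating, the member covered chromosome 2 from 9881590 to 9883128 with an area of 7613 (percentile 60.9), the largest of all members. A second Gata3 peak, from 9883392 to 9883833, was called in every list, with areas of 2766 in CLPP-KO (percentile 32.8), 1965 in WT + 2HG (percentile 27.2) and 1544 in WT (percentile 31.0). The gap between the Gata3 member and the WT peak was 201 bp. At Prox1, a regulator of lymphatic and liver development, the member had an area of 4318 and lay 365 bp from a WT peak of area 1313. At Nr2f1, an orphan nuclear receptor, the member had 4416 and lay 2550 bp from a WT peak that stood at percentile 90.1 of the WT list.

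Lbx1, Irx2, Hoxb3 and Zfp536 had promoter peaks in WT + 2HG and CLPP-KO but none in WT. Lbx1 and Irx2 are homeobox genes, the first of migrating muscle precursors. The Lbx1 member had an area of 5274 and lay 939 bp from the nearest WT + 2HG peak, and the CLPP-KO peak that covered the Lbx1 start had 16541 (percentile 91.7) and overlapped WT + 2HG peaks of 3047 (percentile 35.8) and 992 (percentile 17.8). The Irx2 member had 4815, beside a peak with 1520.1 in WT + 2HG (percentile 23.0) and 16669 in CLPP-KO (percentile 91.9). At the zinc finger gene Zfp536 the members had 3880.3 and 1441, and the WT + 2HG list held peaks of 206 and 228, close to the smallest area in that list.

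Members came in runs at some loci. Counting members no more than 100000 bp apart, the longest run held 7, all between Hoxb6 and Hoxb2 on chromosome 11 (96191579 to 96243107), at Hoxb6, Hoxb5, Hoxb3 and Hoxb2. In that stretch, with its flanks, the WT list held 3 peaks and the areas of 773, 963 and 283 stood at percentiles 18.6, 22.2 and 4.56. The CLPP-KO list covered those 3 places with areas of 8022, 10065 and 10243, at percentiles 62.9, 73.1 and 73.9. The 3 members at Hoxb3 had areas of 4581, 3813 and 2446, and the 1 at Hoxb2 had 787. Elsewhere in the Hox clusters, 4 members lay at Hoxd13, Hoxd10 and Hoxd3 and 3 at Hoxc12, Hoxc10 and Hoxc9. A run of 5 covered the variable first exons Pcdhgb2, Pcdhga5, Pcdhga6, Pcdhga12 and Pcdhgc4 of the γ-protocadherin cluster on chromosome 18, with areas from 230 to 532. Runs of 4 also lay outside such clusters, at Ptprs, Znrf4 and Micos13 and at Ap5b1, Sipa1, Pcnx3 and Ltbp3. Others of 4 lay at Psd, Cuedc2 and Actr1a and at Prkcz, Gabrd, Cfap74 and Tmem52. No count of runs among other promoter regions is given here, so runs are only described. Npas1 and Shank3, with 3 members each, and Hoxb3 were the genes with most members.

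**Figure D2:**
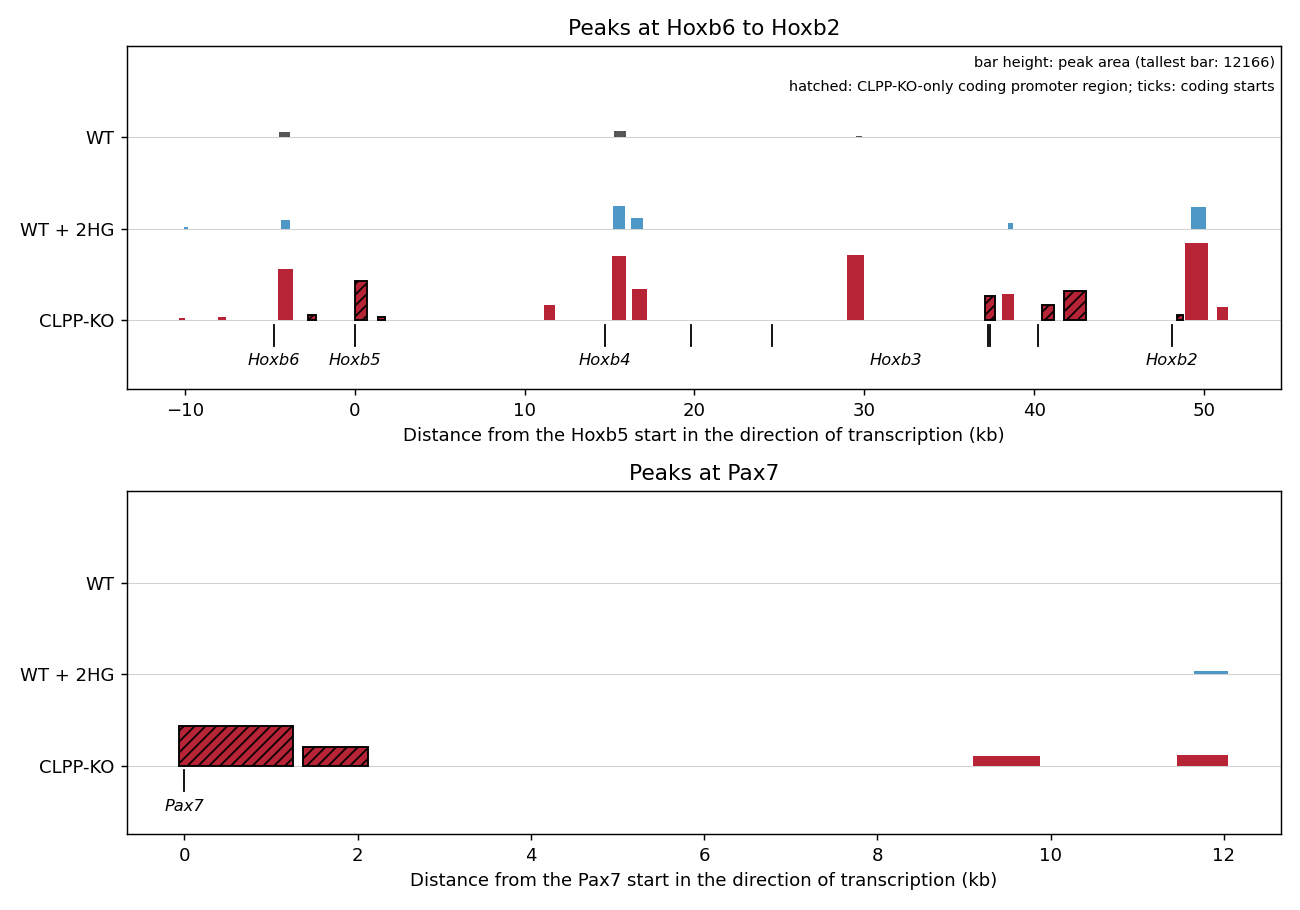
Peaks of the 3 lists at the Hoxb genes (top) and Pax7 (bottom) against the distance from the Hoxb5 or Pax7 start in the direction of transcription (kb), with bar width the peak and bar height its area on 1 scale; hatched bars are CLPP-KO-only coding promoter regions and ticks are coding starts. The 3 WT peaks at Hoxb have areas of at most 963 (percentile 22.2 of the WT list). The CLPP-KO bars at those places reach 10243 (percentile 73.9 of the CLPP-KO list). At Pax7 both hatched bars have no counterpart in WT or WT + 2HG.

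Over all coding genes 4.27% held a member, and the share was above that in the lists of developmental genes and of genes of excitable cells. This was not particular to the members. Promoter peaks in CLPP-KO and WT + 2HG but not WT were found at 21.9% of developmental transcription factors, 17.6% of synaptic genes and 14.5% of ion channels. Over all coding genes that share was 4.62%. The lists were chosen with earlier results of these data known, so their shares are descriptions. Of 196 developmental transcription factors, 43 (21.9%, 16.7 to 28.2) had a member, 18 had a promoter peak in CLPP-KO only, 43 in CLPP-KO and WT + 2HG but not WT, and 101 were marked in WT. The 55 member regions of this list had a median area of 569, and 49 of them were CpG-rich. Synaptic genes had members at 23 of 125 (18.4%, 12.6 to 26.1), among them Grik2 (1762), a glutamate receptor subunit, Syt13 (1727), a synaptotagmin, and Dlgap1 (1385), a postsynaptic scaffold. These 3 genes had no WT or WT + 2HG promoter peak.

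Ion channels had members at 22 of 179 genes (12.3%, 8.26 to 17.9), led by the calcium channel Cacna1i (2264), the potassium channels Kcnc2 (2032) and Kcns2 (1929.9) and the sodium channel subunit Scn4b (1685), all at genes marked in CLPP-KO only. Cadherins had members at 13 of 109 (11.9%, 7.10 to 19.3), all of them CpG-rich, of which Pcdh1 (1924), Fat3 (972), Pcdh20 (545) and Pcdhga5 (532) were the largest. Signalling ligands had members at 11 of 106 (10.4%, 5.89 to 17.6), led by Sema6d (2525), Slit1 (1848), Fgf3 (1411) and Gdf15 (1324). The Sema6d member stood at an alternative start, 518742 bp from the nearest WT peak, while another start of that gene was marked in every list. G-protein-coupled receptors had members at 15 of 168 (8.93%, 5.49 to 14.2), with Ednra (1739), Adgrl3 (1580.2), Gpr37 (1020.4) and Gpr149 (935) the largest.

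Matrix and adhesion genes had members at 12 of 151 (7.95%, 4.60 to 13.4), led by Col26a1 (2375), Adamts19 (2322), Itga4 (1907) and Thbs4 (974). Solute carriers had them at 23 of 351 (6.55%, 4.41 to 9.64), led by Slc6a20a (2281), the vesicular monoamine transporter Slc18a2 (2216), Slco4a1 (2198) and Slc10a4-ps (2021). Immune genes had them at 22 of 399 (5.51%, 3.67 to 8.21), a share whose interval holds the 4.27% of all genes, with H2-Q1, Slc6a20a with its neighbour Ccr9, the interferon-inducible Ifi47 (1963) and Tnfrsf19 (1300.2) the largest. Germline genes had 3 of 36 (8.33%, 2.87 to 21.8), an interval that also holds the 4.27% of all genes. They were Dmrt1 (1164), Dazl (1108) and Boll (912), each with no WT or WT + 2HG promoter peak.

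Zinc finger genes had members at 15 of 481 (3.12%, 1.90 to 5.08), an interval that also holds the share of all genes, with 2 regions at Zfp536 and others at Zfp804b (2312) and Zfp513 (1077). Detoxification genes had members at 3 of 230 (1.30%, 0.445 to 3.76), at Cyp24a1 (645), Cyp26a1 (559) and Sult2b1 (369). Sensory receptors had 1 of 1532 (0.0653%), Or2v1, whose window was reached by the region at Ifi47, and 1528 of these genes had no peak in any list. In all, 227 of the 874 genes with a member (26.0%) were in at least 1 list.

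**Figure D3:**
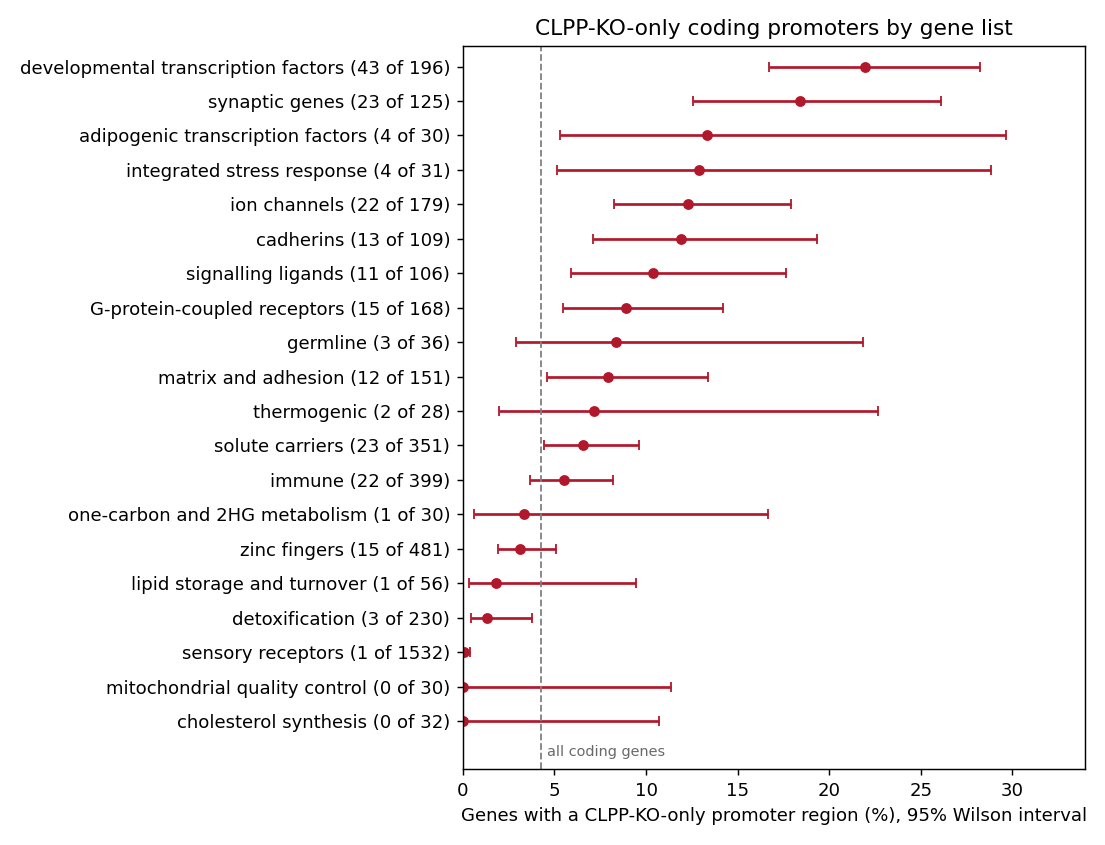
Share of the genes of each list (%) with a CLPP-KO-only region in a coding promoter window, as points with 95% Wilson intervals, and the 4.27% of all coding genes as a dashed line. Developmental transcription factors (21.9%) and synaptic genes (18.4%) lie farthest to the right, and sensory receptors (0.0653%), cholesterol synthesis and mitochondrial quality control (0 members each) lie at the left.

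The lists of brown adipocyte function held few genes each, so their shares have wide intervals. Those given in this paragraph hold the 4.27% of all coding genes, except that of the adipogenic transcription factors, which rests on 4 genes. The intervals cover counting error only, and the lists were chosen with earlier results of these data known, so no interval is a test. Of 28 thermogenic genes, 8 were marked in WT, 12 were in no list, and 2 (7.14%, 1.98 to 22.6) held a member. These were Ryr2, the calcium release channel (area 2346, percentile 30.0), and Ebf2, a factor that commits cells to the brown lineage (1362, percentile 22.2), and neither had a WT or WT + 2HG promoter peak. Of 30 adipogenic transcription factors, 28 were marked in WT and 4 (13.3%, 5.31 to 29.7) held a member, namely Gata3, Ebf2, Ebf3 (343) and Lpin1 (271). At Ebf3 and Lpin1 the member lay 42429 and 63671 bp from the WT peak, at an alternative start. Of 56 genes of lipid storage and turnover, 33 were marked in WT and 1 (1.79%, 0.316 to 9.45) held a member, Plin5, which encodes a lipid-droplet protein that contacts mitochondria (820.3, percentile 16.2). Cholesterol synthesis had members at 0 of 32 genes (interval up to 10.7%) and mitochondrial quality control at 0 of 30 (up to 11.4%), and 26 and 29 of them were marked in WT. Promoter peaks in CLPP-KO and WT + 2HG but not WT were at 6 thermogenic genes (21.4%), 6 lipid genes (10.7%) and 3 cholesterol genes (9.38%). They were at 1 adipogenic transcription factor (3.33%) and 0 mitochondrial quality control genes. Over all coding genes that share was 4.62%.

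The integrated stress response list, which holds the targets of ATF4, had members at 4 of 31 genes (12.9%, 5.13 to 28.9). The interval does not hold the 4.27% of all coding genes, but it rests on 4 genes and is not a test of the list. Of the list, 24 genes were marked in WT, among them Cth and Atf3. The Gdf15 member, at a stress-induced hormone gene, had an area of 1324 at percentile 21.9, and a WT + 2HG peak lay 694 bp from it, outside the window. Pycr1, an enzyme of proline synthesis, had 232 at percentile 2.07. Cth, an enzyme of cysteine synthesis, had 502 at percentile 11.0, and a WT peak of area 213 lay 137 bp away. Atf3 had 246 at percentile 2.73, while its main start was covered in every list, at percentile 56.0 of the CLPP-KO list, 56.8 of the WT + 2HG list and 54.2 of the WT list. None of these 4 members was CpG-rich. In one-carbon and 2HG metabolism, 22 of 30 genes were marked in WT and 1 (3.33%, 0.591 to 16.7) held a member, the methyltransferase gene Gnmt (455, percentile 9.80).

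The labelled cell type was checked against the same lists. Of 8 brown adipocyte markers, Pparg, Cebpa and Prdm16 had promoter peaks in all 3 lists, Cidea and Plin1 had them in WT + 2HG and CLPP-KO but not WT, and Ucp1, the uncoupling protein of brown fat, and the general adipocyte genes Adipoq and Fabp4 had none in any list. No brown adipocyte marker was a member. Among 6 markers of preadipocytes and fibroblasts, Col1a1, Dlk1, Pdgfra and Pdgfrb were marked in all lists, Dpt in none, and Thy1 in CLPP-KO only (area 1368). Of 5 macrophage markers none had a peak, and of 5 endothelial markers only Kdr did, in all lists. Of 6 muscle markers, Pax7 and Myod1 (489) were members, Des was marked in WT + 2HG and CLPP-KO, and Myf5, Myog and Myh3 were in no list. Of 5 markers of neurons and glia, Elavl4 and Tubb3 were marked in all lists, Sox10 in WT + 2HG and CLPP-KO, Snap25 in none, and Rbfox3 (464) was a member. Whether the makeup of the cultures differed between conditions was not tested.

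Members were less CpG-rich than promoters marked in every condition. In the 300 bp around the summit, a window was called CpG-rich where the ratio of observed to expected CpG was at least 0.6 and the GC content at least 50%. That held for 547 of 853 members (64.1%, 60.9 to 67.3), for 80.2% (77.9 to 82.3) of the regions shared with WT + 2HG, for 92.5% (92.0 to 93.0) of those in all 3 lists and for 41.7% (36.8 to 46.8) of those in WT + 2HG only. The median ratio was 0.690 in members and 0.833 in regions of all lists, and the median GC content was 65.3% and 69.7%. Members at genes marked in CLPP-KO only were CpG-rich at 71.6% (67.4 to 75.4), those at genes marked in WT + 2HG but not WT at 73.8% (64.8 to 81.2), and those at genes marked in WT at 46.2% (40.2 to 52.2). These kinds also differed in the distance from summit to start, and its part in this split was not tested. In the window from 250 bp before to 50 bp after the start, 49.0% of members, 57.9% of the regions shared with WT + 2HG, 45.3% of those in WT + 2HG only and 78.0% of those in all 3 lists were CpG-rich, each taken at the start nearest to the summit. Over all coding genes, at the outermost start of each, 35.5% were.

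CpG content moved with peak area among the members. Of the 284 members with the largest areas (731 and above), 80.6% were CpG-rich, of the middle 284, 62.0%, and of the 285 smallest, 49.8%. The share at genes marked in CLPP-KO only was 67.6%, 54.2% and 49.1% in the same order, and the share at genes marked in WT was 19.4%, 32.0% and 40%. The part of peak area in the contrast of CpG content between classes was not tested.

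**Figure D4:**
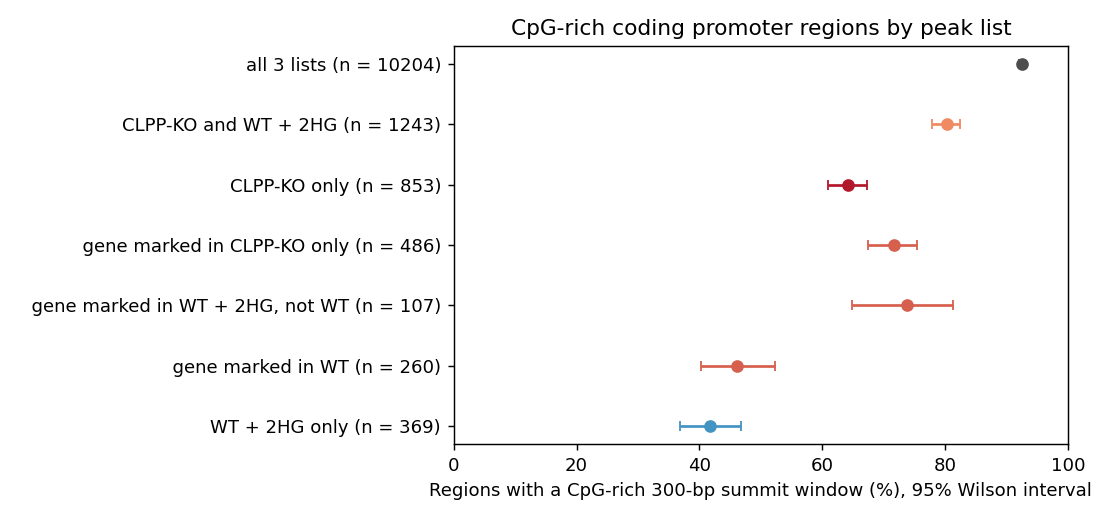
Share of coding promoter regions (%) whose 300-bp summit window was CpG-rich, as points with 95% Wilson intervals, by the lists that hold the region and, for CLPP-KO-only regions, by the promoter peaks of their genes. CLPP-KO-only regions (64.1%) lie between those in all 3 lists (92.5%) and those in WT + 2HG only (41.7%), and those at genes marked in WT lie at 46.2%.

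Short motifs were counted in the summit windows on both strands, and a match describes letters, not a bound factor. The GC box GGGCGG was in 49.2% (45.9 to 52.6) of members, 61.6% of regions shared with WT + 2HG and 66.5% (65.6 to 67.4) of regions in all 3 lists. None of the strings searched contains another. The CCAAT box, CCAAT, was in 18.2% (15.7 to 20.9) of members and 13.6% of regions in all lists, and the TATA box TATAAA in 3.17% (2.18 to 4.57) and 1.00%. Regions shared with WT + 2HG held these 2 motifs at 19.8% and 3.06%, and regions in WT + 2HG only at 24.4% and 3.79%. The E-box CACGTG was in 6.33% of members and 5.89% of regions in all lists, and the cAMP response element TGACGTCA in 0.938% and 0.745%. In the same order, the ATF4 composite element TGATGNAA was in 1.29% and 0.882%, and the NRF1 core CGCATGCG in 0.469% and 0.647%. From the E-box on, the members' interval held the other value of each pair. The CTCF core was in 0.117% and 0.225%. The order was not the same in the window from 250 bp before to 50 bp after the start. There the GC box was in 50.3% of members (46.9 to 53.6) and 69.7% of regions in all lists, the CCAAT box in 32.8% (29.8 to 36.0) and 33.6%, and the TATA box in 6.45% (4.99 to 8.30) and 5.28%. The ATF4 composite element was in 2.93% (1.99 to 4.29) and 1.45% there, and the NRF1 core in 1.64% (0.980 to 2.74) and 3.39%. Over all coding genes, at the outermost start of each, the GC box was in 37.9%, the CCAAT box in 39.5%, the TATA box in 13.6%, the ATF4 composite element in 3.63% and the NRF1 core in 2.12%.

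Members were spread over every autosome. The share of coding promoter regions that were members ran from 2.90% on chromosome 16 (11 of 379, 1.63 to 5.12) and 4.56% on chromosome 12 (21 of 461) to 8.70% on chromosome 19 (41 of 471, 6.48 to 11.6), 8.64% on chromosome 15 and 8.56% on chromosome 18. Regions shared with WT + 2HG were also least frequent on chromosome 16, at 5.54%, and regions in WT + 2HG only were most frequent on chromosome 7, at 5.42%. Chromosome 11, with the Hoxb run, held the most members (73 of 1126, 6.48%).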

How the data were processed

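Peaks of H3K4me3 were deposited as 1 list per condition, called by the authors with Genrich (0.6.1, q threshold 0.05) on the 4 ChIP samples together with 1 input, after fastp (0.23.4) trimming and BWA (0.7.17) alignment to GRCm39, as the labels and methods give them. Of each deposited peak the area under the curve (signal) and the −log10 p-value at the summit were used, and the score, capped at 1000 by the authors' caller, was read only as a check. The q field is −1 throughout, so it holds no q-value. Each list starts at an area of about 200, above the area minimum that the study states. Peaks on chromosome X are present, although the stated call left that chromosome out. The deposited lists therefore differ from the stated call. Whether the q threshold of 0.05 was applied cannot be read from them, so weak members are not taken as calls at that threshold. The study states 1 sequencing depth for the ChIP samples, and read totals per sample cannot be read from the lists, although depth can change how many weak peaks are called. Percentiles are over each whole list.

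Peaks sharing at least 1 bp were joined, and regions were matched to 64526 starts of protein-coding transcripts (GENCODE M39, GRCm39) within 2000 bp. Each region was assigned to the gene with the nearest start. bedtools (2.31.1) found the same 853 regions, and the joining was tested on simulated data. Named are the 15 largest members at genes without a WT or WT + 2HG promoter peak, the 8 largest at other genes, every member in the brown adipocyte, metabolic, stress and cell-marker lists and up to 4 per other list. Windows reaching a UTR were passed over for printed sequence, of which there were 11, departing from the planned order. Some items that this rule names are not reported here. The members and the lists were chosen with earlier results of these data known. Replicates were pooled by the authors, so no test was run. Versions were 3.11.15 for Python, 1.17.1 for scipy and 2.3.3 for pandas.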

Additional observations from a re-analysis of the deposited data

Results flagged for a closer look

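On chromosome X, which lies outside the regions described, 33 coding promoter peaks were in the CLPP-KO list only, against 22 in the WT + 2HG list only and 2 in the WT list only. They were set apart because they lie in data that no comparison here used. The order was that of the autosomal counts of 853, 369 and 83, which became 371, 270 and 297 in lists of equal size by area. The chromosome X counts were not taken from such lists or set beside all promoter peaks of that chromosome. The difference was not tested.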

How the results depend on the processing

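The count of 853 CLPP-KO-only coding promoter regions moved with the area minimum, list length and what counts as shared. It was 1318 where peaks had to overlap by 50% of both, 371 and 355 with equal-sized lists by area and by summit p, 201 with a CLPP-KO area of at least 1000 and 557 where the summit p was 1e-05 or lower. The share at genes marked in WT, 30.5% as reported, was 24.5% and 34.3% with windows of 1000 and 3000 bp and 18.9% both with equal-sized lists by area and with the area minimum. The CpG-rich share, 64.1% as reported, was 58.0% in 600 bp, 49.0% at the start, where median GC content was 59.3%, and 82.6% with the area minimum. With equal-sized lists, genes in any list fell from 227 to 115 and ion channels from 22 to 12. The other 18 values moved by less than 1.5 times or stayed within their interval, and the cause of the moves was not tested beyond fewer peaks entering. No paired analysis was possible because the peaks of each condition were called on its 4 replicates together, and no replicate could be left out for the same reason. Read totals per sample are unknown here, so a missing WT peak may be a weak one.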
